A study of Mus musculus with 14 samples.

Results

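The binding sites of the transcription factors GATA2 and RUNX1 were compared within 1 genotype, the Chd7 knockout of the mouse erythroblast line G1ER. The members were all peaks of the knockout GATA2 list (80611) and the knockout RUNX1 list (35281), of 541869 regions in the 6 deposited lists of the series. Of the 14 samples of the series, these 2 libraries (1 per factor) gave the comparison. The series measured GATA2, RUNX1 and the elongating form of RNA polymerase II (phosphorylated on serine 2 of its tail repeat, here S2P) by ChIP-seq, in which DNA bound by a protein is pulled down with an antibody and sequenced, in wild-type and Chd7-/- cells. Chd7 encodes a chromatin remodelling ATPase. G1ER cells of both genotypes derive from a line without functional GATA1 and carry a GATA1 fusion that estradiol switches on. They were grown with erythropoietin and stem cell factor. The labels name 48 hours of estradiol for a differentiation assay. They do not give the estradiol state of the ChIP cells, the input used for each list, or whether the knockout is 1 clone. The knockout S2P list, which the labels name for both of its 2 replicates, served as a separate readout, and the wild-type factor lists were measured in the same way for reference.

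GATA2 is a zinc finger protein that recognises GATA sequences and maintains blood stem cells, progenitors and mast cells. During red cell maturation GATA1 replaces it at many sites. RUNX1 binds a short sequence around TGTGGT together with its partner CBFB, is required for the emergence of blood stem cells, and can occupy the same enhancers as GATA factors with TAL1, LYL1, LMO2, LDB1, ERG and FLI1.

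Stretches of gene starts are shown first, because they let the 2 factors be set against the letters beneath them. RefSeq promoter windows (GRCm38, 250 bases before to 50 after the start) were sorted by whether a summit, the highest point of a peak, lay in them. The 3 windows with the strongest peaks of each kind are given as 150 bases, 5′ to 3′ on the gene's strand, with capitals for a GATA motif (AGATAA) or a RUNX motif (TGTGGT) on either strand. Values are sequenced fragments stacked at the summit, with exact Poisson 95% intervals. The windows with both summits were those of Sde2, a genome maintenance gene (chr1:180850901-180851050, plus strand), the formin gene Diaph3 (chr14:87141225-87141374, minus) and the lysosomal cholesterol carrier gene Npc2 (chr12:84773113-84773262, minus):
Sde2: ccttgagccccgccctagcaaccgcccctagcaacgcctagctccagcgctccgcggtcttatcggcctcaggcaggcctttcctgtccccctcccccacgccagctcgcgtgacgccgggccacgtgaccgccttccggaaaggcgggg
Diaph3: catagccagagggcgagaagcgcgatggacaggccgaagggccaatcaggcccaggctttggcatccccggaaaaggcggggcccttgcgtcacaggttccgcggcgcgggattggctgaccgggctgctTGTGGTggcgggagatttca
Npc2: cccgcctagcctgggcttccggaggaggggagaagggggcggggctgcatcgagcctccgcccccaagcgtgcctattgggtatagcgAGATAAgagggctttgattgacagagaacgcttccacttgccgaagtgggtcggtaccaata
Sde2 had 277 GATA2 fragments (245 to 312) and 246 RUNX1 fragments (216 to 279), with neither AGATAA nor TGTGGT in its window. Its stretch did hold the shorter form GATAA on the other strand (ttatc). Diaph3 had 252 and 207 fragments, and its RUNX motif lay 2.5 bp from the GATA2 summit and 56.5 bp from the RUNX1 summit. Npc2 had 250 and 254 fragments, and its GATA motif lay 64.5 bp from the GATA2 summit and 7.5 bp from the RUNX1 summit. In these 2 windows the motif thus sat nearer to the summit of the other factor.

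GATA2 summits without a RUNX1 summit in the window were strongest at the ribosomal protein gene Rpl19 (chr11:98026460-98026609, plus), the DNA repair gene Shld1 (chr2:132689982-132690131, plus) and the interferon response factor gene Irf9 (chr14:55603835-55603984, plus):
Rpl19: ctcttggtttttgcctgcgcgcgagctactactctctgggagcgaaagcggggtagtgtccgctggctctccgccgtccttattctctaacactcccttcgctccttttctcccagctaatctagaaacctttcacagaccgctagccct
Shld1: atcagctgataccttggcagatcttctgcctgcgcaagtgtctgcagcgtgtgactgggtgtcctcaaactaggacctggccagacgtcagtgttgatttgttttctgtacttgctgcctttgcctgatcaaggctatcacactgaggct
Irf9: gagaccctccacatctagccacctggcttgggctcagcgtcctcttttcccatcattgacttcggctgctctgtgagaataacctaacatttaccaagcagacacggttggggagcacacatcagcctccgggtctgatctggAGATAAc
They had 181 (156 to 209), 189 (163 to 218) and 216 fragments (188 to 247). The class refers to the window alone: the 3 genes had 3, 6 and 2 RUNX1 peaks with summits outside it, in the gene or within 5 kb. At Rpl19 the strongest of them (238 fragments) overlapped the GATA2 peak, with its summit 353 bp away. The GATA motif of Irf9 lay 10.5 bp from the GATA2 summit. The window of Shld1 also held AGATAA, outside the 150 bases shown.

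RUNX1 summits without a GATA2 summit in the window were strongest at the deadenylase gene Cnot6 (chr11:49712746-49712895, minus), the peptidase gene Dpp9 (chr17:56218929-56219078, minus) and the ubiquitin ligase gene Mgrn1 (chr16:4885888-4886037, plus):
Cnot6: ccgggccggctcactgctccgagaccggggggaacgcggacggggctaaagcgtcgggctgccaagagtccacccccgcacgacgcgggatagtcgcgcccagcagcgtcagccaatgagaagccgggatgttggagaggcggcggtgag
Dpp9: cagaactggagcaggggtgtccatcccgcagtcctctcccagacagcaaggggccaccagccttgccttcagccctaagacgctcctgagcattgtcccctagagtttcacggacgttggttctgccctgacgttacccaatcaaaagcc
Mgrn1: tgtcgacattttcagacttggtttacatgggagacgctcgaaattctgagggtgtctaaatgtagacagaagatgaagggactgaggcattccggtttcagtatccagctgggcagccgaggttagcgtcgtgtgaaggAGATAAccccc
They had 266 (235 to 300), 251 (221 to 284) and 238 fragments (209 to 270). Here too the class refers to the window alone: the 3 genes had 8, 1 and 3 GATA2 peaks with summits outside it, in the gene or within 5 kb. None of these 3 stretches held the RUNX motif, and that of Mgrn1 held a GATA motif 67.5 bp from the RUNX1 summit.

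Over all 19990 windows outside chromosome 5, RUNX1 summits were far more frequent at gene starts than GATA2 summits. A RUNX1 summit alone lay in 5486 windows (27.4%), both lay in 449 (2.25%), a GATA2 summit alone in 214 (1.07%) and neither in 13841. AGATAA, searched on both strands, was in 44.4% of the windows with GATA2 alone (37.6 to 51.3), 29.8% of those with both (25.7 to 34.3), 3.50% of those with RUNX1 alone (3.03 to 4.02) and 9.87% of all windows. TGTGGT, also on both strands, was in 12.0% of the windows with RUNX1 alone (11.1 to 12.9), 16.3% of those with both, 17.3% of those with GATA2 alone and 15.1% of all windows. The wider form TGNGGT was in 40.9% of the windows with RUNX1 alone and 44.2% of all.

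Of windows with RUNX1 alone, 26.3% held the ETS sequence CCGGAAG (11.4% of all windows) and 74.4% the GC box GGGCGG (45.8% of all windows), both searched on both strands. Their median GC content was 62.3%, against 56.3% of all windows, and its part in these shares was not tested. Windows with GATA2 alone had a median GC of 50.7%. Within windows of 50 to 60% GC, the AGATAA shares were 39.2% for GATA2 alone, 32.6% for both, 5.57% for RUNX1 alone and 8.82% for neither. The order was the same below 50% GC and from 60 to 70%, and from 70% there was 1 window with GATA2 alone. The TGTGGT share of windows with RUNX1 alone against those with neither changed direction with GC content. It was 13.7% (10.1 to 18.1) against 20.9% (19.8 to 22.0) below 50% GC, 15.3% against 18.0% from 50 to 60%, and 11.6% against 10.9% from 60 to 70%. From 70% GC it was 6.76% (5.28 to 8.51) against 3.41% (2.54 to 4.47), the higher share being that with RUNX1. In windows that held the motif, the GATA2 summit lay a median of 24.5 bp from AGATAA (229 windows, 52.0% within 25 bp). The RUNX1 summit lay 81.5 bp from TGTGGT (730 windows, 19.6% within 25 bp, 16.8 to 22.7). This was close to its 90 bp from AGATAA (326 windows, 17.2% within 25 bp, 13.2 to 21.7). The GATA2 summit lay 70 bp from TGTGGT (110 windows, 25.45% within 25 bp), no farther than the RUNX1 summit. A match is a description of letters and not a measured binding site.

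All values below leave out chromosome 5 unless it is named, because in these lists it stands apart (given last). Each factor had 1 library, so no spread between replicates and no test exists. Intervals are exact Clopper-Pearson 95% intervals that cover counting error only, since peaks and genes of 1 library are not replicates. Total read depth is not given in the sources used here. The median summit held 23 fragments in the GATA2 list (74963 peaks) and 36 in the RUNX1 list (32796 peaks). The highest value was 282 in both lists, and it was 286 in both wild-type lists. Whether counts are capped at these values was not tested. A cap would narrow the ratios between factors at the strongest sites, and the Poisson intervals there take no account of one. At Chd7 the GATA2 list had 1 peak of 15 fragments (8.40 to 24.7) and the RUNX1 list had none, so the locus does not check the genotype. Among marker genes of at least 2 kb, S2P covered at least 50% of the length of 16 of 42 erythroid genes. It did so at 1 of 20 mast cell, 3 of 23 megakaryocyte, 1 of 22 myeloid, 0 of 27 lymphoid and 1 of 30 neuronal and muscle genes. The share over all genes of at least 2 kb was 17.0%.

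Most genes with RUNX1 also had GATA2. A peak was assigned to each protein-coding gene whose body, extended by 5 kb on both sides, contained the summit. By this rule 9535 of 20618 genes had both factors (46.2%, 45.6 to 46.9), 2939 had GATA2 alone (14.3%), 1270 had RUNX1 alone (6.16%, 5.84 to 6.50) and 6874 had neither (33.3%). GATA2 was present at 60.5% of genes and RUNX1 at 52.4%. Of the genes with both, 6032 (63.3%, 62.3 to 64.2) had a place where peaks of the 2 factors overlapped by at least 1 bp, and the others had them apart. In 2663 of them (27.9%) the strongest peak of each factor was at the same site. The list lengths matter for these counts: with the GATA2 list cut to as many of its strongest peaks as the RUNX1 list, 1021 genes had GATA2 alone and 3080 had RUNX1 alone.

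The 2 kinds of single-factor genes differed in length and in elongating polymerase. The classes did not use the polymerase, but they are tied to length, because a longer gene has more room for a summit of either factor. Genes with RUNX1 alone were short (median 8.56 kb), as were those with neither (6.77 kb). Those with GATA2 alone were long (27.8 kb), as were those with both (24.97 kb). The part of the assignment rule in these lengths was not tested. Among genes of at least 2 kb, S2P peaks covered at least 50% of the length of 17.0% of all genes. This share was 28.6% of 9259 genes with both (27.6 to 29.5), 27.2% of 1180 with RUNX1 alone (24.7 to 29.8), 2.25% of 2715 with GATA2 alone (1.72 to 2.88) and 1.08% of 4915 with neither (0.809 to 1.41). When only summits inside the gene itself were counted, the shares were 27.9%, 33.3%, 13.1% and 6.55%, so the level at genes with GATA2 alone depends on that choice and the order of RUNX1 alone over GATA2 alone does not.

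The order held within 3 equal classes of genes by length. In the shortest class (up to 12.1 kb) 40.7% of genes with both were covered, 34.3% of those with RUNX1 alone (30.8 to 37.9), 7.74% of those with GATA2 alone (5.78 to 10.1) and 2.09% of those with neither. In the middle class the shares were 32.3%, 19.7%, 1.36% and 0.277%. In the longest class 16.9% of genes with both were covered, and 2 of 96 genes with RUNX1 alone, 1 of 1270 with GATA2 alone and 0 of 1131 with neither (upper bound 0.326%). Long genes with RUNX1 alone were therefore too few for a firm share (0.253 to 7.32%).

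**Figure D1:**
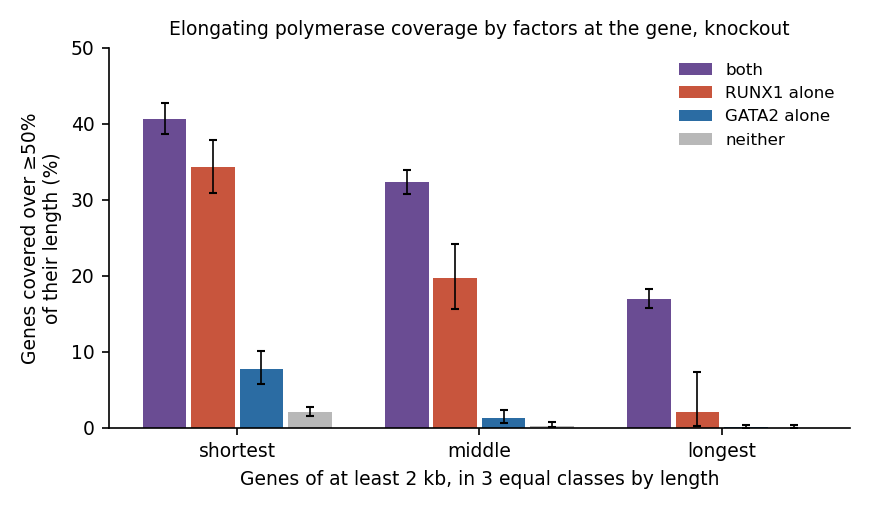
Share of genes of at least 2 kb outside chromosome 5 (vertical axis, percent) with at least 50% of their length under S2P peaks, in 3 equal classes of gene length (horizontal axis) and by the factors within 5 kb (colours); bars are shares and whiskers exact 95% intervals for counting error. Genes with both factors or RUNX1 alone stand above those with GATA2 alone and neither in the shortest and middle classes, at 40.7%, 34.3%, 7.74% and 2.09% in the shortest.

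S2P coverage was also compared by which factor lay at a gene end, within 1 kb of either end of the gene. Of 4650 genes with RUNX1 but not GATA2 at an end, 31.9% were covered (30.5 to 33.2). Of 837 genes with GATA2 but not RUNX1 at an end, 11.2% were covered (9.17 to 13.6). With both at an end the share was 37.2% of 3364 genes, and with neither 2.75% of 9218.

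RUNX1 peaks overlapped GATA2 peaks in 52.4% of cases (51.9 to 53.0), and GATA2 peaks overlapped RUNX1 peaks in 22.5% (22.3 to 22.9). The overlapped peaks numbered 17187 and 16900, so the shares differ through the lengths of the lists. GATA2 sites with RUNX1 were much stronger than those without, with medians of 84 and 19 fragments, whereas RUNX1 sites with and without GATA2 had medians of 37 and 36. With each list split into 10 equal classes by −log10 q, 91.0% of peaks in the strongest GATA2 class overlapped RUNX1, 51.0% in the next and 4.14% in the weakest. For RUNX1 the share went from 63.5% in the strongest class to 38.7% in the weakest. The plot of overlap by strength shows the fall of both shares, the larger one for GATA2.

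**Figure D2:**
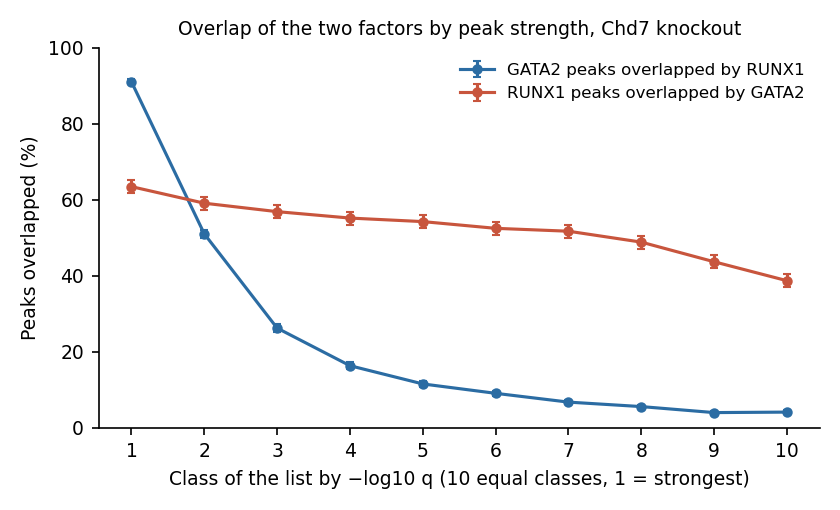
Share of peaks overlapped by a peak of the other factor (vertical axis, percent) in 10 equal classes of each knockout list by −log10 q (horizontal axis, 1 is the strongest), outside chromosome 5; whiskers are exact 95% intervals. GATA2 drops from 91.0% to 4.14%, and RUNX1 from 63.5% to 38.7%.

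Of RUNX1 summits, 30.2% (29.7 to 30.7) lay within 1 kb of a gene end, against 6.60% of GATA2 summits (6.42 to 6.78). For both factors more of these lay at the start than at the far end of the gene, in genes whose direction was known: 22.6% and 3.75% of all RUNX1 summits, and 3.66% and 2.01% of all GATA2 summits. GATA2 summits lay inside genes in 52.8% of cases and over 5 kb from any gene in 33.4%, and RUNX1 summits in 42.5% and 21.0%.

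RUNX1 peaks fell into 2 kinds by their overlap with GATA2. Without GATA2, 50.6% (49.8 to 51.4) lay at a gene end. With GATA2, 11.6% (11.1 to 12.1) did, and so did 11.6% of the GATA2 peaks at these shared sites. GATA2 peaks without RUNX1 lay at gene ends in 5.13% of cases. Read the other way, 20.2% of RUNX1 peaks at gene ends overlapped GATA2, against 65.0% of those inside genes and 70.7% of those over 5 kb from a gene. RUNX1 peaks at gene ends had a median of 51 fragments both with and without GATA2, and those inside genes had 36 with and 28 without. For GATA2 the direction was the opposite: 39.8% of its gene-end peaks overlapped RUNX1, against 22.5% inside genes and 19.1% over 5 kb away.

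Around gene starts the RUNX1 list formed a narrow peak. Pairs of a summit and a promoter-window start were counted, so a summit near several starts counted for each. From 100 to 50 bp upstream, a 50 bp bin held 53.8 such pairs per 1000 RUNX1 peaks. This was 36.9 times the mean of 1.46 per bin between 1500 and 2000 bp from the start. The highest GATA2 bin, 200 to 150 bp upstream, held 1.73 per 1000 peaks, 1.51 times its mean of 1.15 at that distance. Of 10854 RUNX1 pairs within 1 kb, the summit was upstream in 64.5% (63.6 to 65.4), and of 3829 GATA2 pairs in 54.7% (53.1 to 56.3). With 1 start per gene, 7415 RUNX1 and 2741 GATA2 summits lay within 1 kb. The intervals therefore count some summits more than once.

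**Figure D3:**
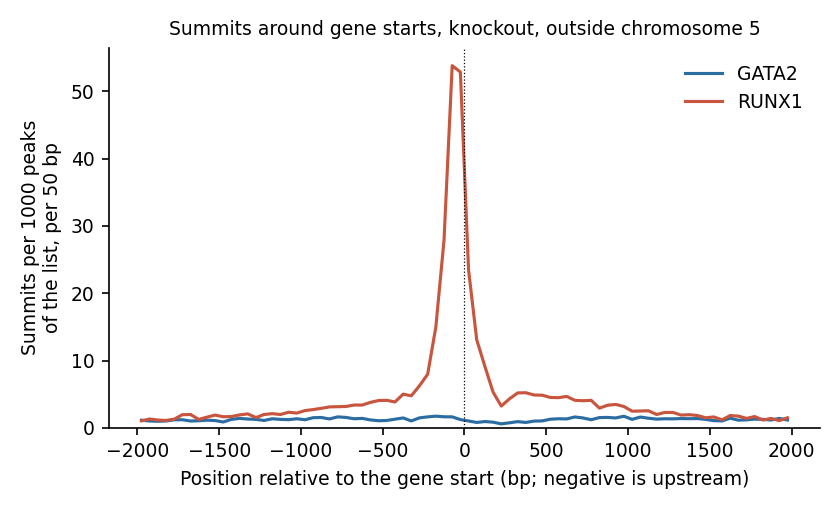
Summits per 1000 peaks of each knockout list in bins of 50 bp (vertical axis) by position relative to the gene start (horizontal axis, negative is upstream), outside chromosome 5. A summit near several starts is counted for each. RUNX1 rises to 53.8 just upstream of the start, and GATA2 stays at or below 1.73.

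Where the 2 factors overlapped, their summits nearly coincided. The 17366 overlapping pairs had a median distance of 23 bp (quartiles 9 and 55), with 53.6% within 25 bp and 84.3% within 100 bp. In 5 equal classes of pairs by strength, the median went from 13 bp in the strongest to 40 bp in the weakest. Pairs at gene ends were farther apart, with a median of 60 bp and 23.6% over 200 bp, whereas pairs inside genes and pairs over 5 kb from a gene both had a median of 21 bp. Chromatin fragments averaged 500 bp before amplified fragments of 150 to 300 bp were selected, so distances of this size do not resolve separate contacts.

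**Figure D4:**
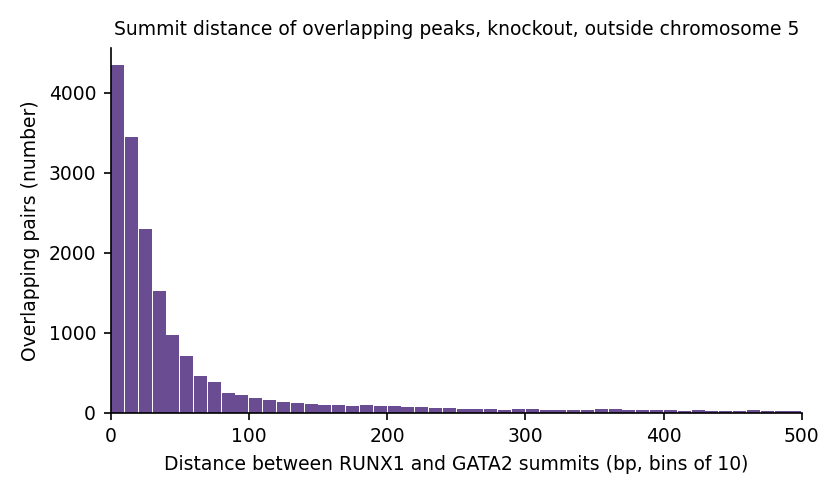
Number of overlapping pairs (vertical axis) by distance between the RUNX1 and the GATA2 summit in bins of 10 bp (horizontal axis, up to 500 bp), knockout, outside chromosome 5. The lowest bins hold the most pairs, and the median is 23 bp.

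From any RUNX1 summit the nearest GATA2 summit was at a median of 0.269 kb, and from any GATA2 summit the nearest RUNX1 summit was at 5.20 kb. RUNX1 peaks that overlapped no GATA2 peak still had one near: the median was 2.48 kb, with 68.1% within 5 kb and 98.3% within 50 kb. GATA2 peaks without RUNX1 had a median of 10.4 kb, with 34.7% within 5 kb.

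The strongest sites with both factors, ranked by the weaker of the pair, all lay inside genes. In Pde4d, a cAMP phosphodiesterase gene (chr13:109647345-109648338), GATA2 had 280 fragments (248 to 315) and RUNX1 239 (210 to 271), with summits 20 bp apart. In Mctp1 they had 277 and 263 fragments 3 bp apart, and in Bckdhb, a branched-chain amino acid catabolism gene, 266 and 213 fragments 1 bp apart. In the formin gene Diaph1 and the transcription factor gene Ubp1 the summits were at the same base, with 218 and 229 fragments and with 280 and 243. In Ryr2, a calcium release channel gene of the heart, they had 264 and 206 fragments 8 bp apart. S2P covered 61.8% of Ubp1 and 33.9% of Diaph1, 12.6% of Pde4d, 0.331% of Mctp1, 0.0743% of Bckdhb and none of Ryr2. Strong sites with both factors therefore included genes with little or no elongating polymerase.

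The strongest RUNX1 peaks at genes without GATA2 were all at a gene end. They lay at the tetraspanin gene Tspan4 (chr7:141474956-141475632), with 232 fragments (203 to 264), at Ppp1r13l, a p53 inhibitor gene (263 fragments), at the folliculin gene Flcn (252), at Fam53c (231), at the chaperone gene Hsp90ab1 (205) and at the kinetochore motor gene Cenpe (236). Their summits were 39 to 558 bp from the end. S2P covered 100% of Hsp90ab1, 66.1% of Tspan4, 57.4% of Flcn, 40.9% of Cenpe, 15.2% of Fam53c and none of Ppp1r13l. None of these 6 genes had a wild-type GATA2 peak either.

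The strongest GATA2 peaks at genes without RUNX1 included genes best known from other tissues. They lay at the protease inhibitor gene Spint1 (chr2:119250875-119251368), with 271 fragments (240 to 305), at the glycogenin gene Gyg (136), at the pepsinogen gene Pga5 (165), at the phospholipase receptor gene Pla2r1 (185) and at the kidney gene Nphs1 (148). S2P covered 1.15% of Nphs1 and none of the other 4 genes. The summits at Pga5 and Pla2r1 lay at a gene end, and the other 3 did not. Of these genes Gyg and Pla2r1 each had 1 RUNX1 peak in the wild type.

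With fragments divided by the lowest background of each list (1.575 for GATA2 and 1.388 for RUNX1), the median log2 ratio of RUNX1 to GATA2 at overlapping sites was −0.86. RUNX1 exceeded GATA2 by more than 2-fold at 861 pairs (4.96%), and GATA2 exceeded RUNX1 by more than 2-fold at 7725 pairs (44.5%). The 2 antibodies can differ in yield, so only the order of sites is read. At gene ends the median was −0.29 with 16.5% of pairs in favour of RUNX1, and inside genes it was −0.94 with 3.08%.

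The pairs with the highest ratio were in Stau1, an RNA-binding protein gene, where RUNX1 had 201 fragments (174 to 231) and GATA2 19 (11.4 to 29.7) at summits 18 bp apart, a log2 ratio of 3.59. They were followed by pairs at Tmem86b (3.41), the kinesin gene Kif24 (3.27), the semaphorin gene Sema4d (3.20), Mocs1 (3.17) and Ibtk (3.13), whose summits were 212 to 752 bp apart. The pairs with the lowest ratio were in Nckap5 (−4.15), the cGMP-dependent kinase gene Prkg1 (−4.09), Tlcd4 (−4.06), Pcyt1b (−3.99), Fut9 (−3.99) and the myelin basic protein gene Mbp (−3.78), with GATA2 at 242 to 280 fragments and RUNX1 at 12 to 18. Their summits were 258 to 789 bp apart. Apart from Stau1, the extreme pairs were thus overlapping peaks whose summits stood apart. At Nckap5, Prkg1, Tlcd4, Pcyt1b and Fut9 the RUNX1 peak lay wholly inside the GATA2 peak.

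The genes of the factors themselves carried both. At Gata2 there were 8 GATA2 and 13 RUNX1 peaks, 4 of the RUNX1 peaks overlapping GATA2, and the strongest had 264 (233 to 298) and 177 (152 to 205) fragments at summits 1094 bp apart, outside the gene and within 5 kb of it. At Runx1 there were 33 and 30 peaks, 17 of the RUNX1 peaks overlapping GATA2, and the strongest had 223 and 261 fragments at separate places of the gene. At Cbfb the sites were weak, with 47 GATA2 (34.5 to 62.5) and 25 RUNX1 fragments (16.2 to 36.9) at the strongest. At Gata1 there were 7 and 5 peaks, 252 and 174 fragments at the strongest, which lay 5156 bp apart.

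Partners known to act with GATA and RUNX proteins differed in whether the strongest peaks coincided. They did at Tal1 (270 and 125 fragments, 11 bp apart), Lyl1 (279 and 204, 4 bp), Lmo2 (140 and 62, 28 bp) and Gfi1b, a repressor gene of the erythroid and megakaryocyte lineages (177 and 74, 25 bp), each at a gene end. They did not at Ldb1 (155 and 82), Zfpm1, the gene of the GATA1 cofactor FOG1 (281 and 247), Spi1 (259 and 123), Myb (40 and 57) or Kit, the stem cell factor receptor gene on chromosome 5 (233 and 137). At Erg all 16 RUNX1 peaks overlapped one of the 35 GATA2 peaks (268 and 239 fragments at the strongest), yet S2P covered 1.56% of the gene. Its relative Fli1 had no peak of either factor.

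Among 37 haematopoietic regulators outside chromosome 5, 31 had both factors, 4 had GATA2 alone, 1 had RUNX1 alone and 1 had neither, against 46.2%, 14.3%, 6.16% and 33.3% of all genes. The strongest GATA2 peaks of this list were at Cbfa2t2 (277 fragments), Tcf12 (264) and Gata1. The strongest RUNX1 peaks were at Cbfa2t3, the ETO2 corepressor gene (262), Zfpm1 and Nfe2 (268). The 4 with GATA2 alone were Runx3, Mecom, Cebpa and Chd7, with 10 to 16 fragments at the strongest peak, and RUNX1 alone was at Mafg (55).

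Erythroid effector genes carried both factors in 42 of 50 cases (84%), GATA2 alone in 7 (14%), RUNX1 alone in 0 and neither in 1, the water channel gene Aqp1. Over all genes these shares were 46.2%, 14.3%, 6.16% and 33.3%. Counting Tfr2 on chromosome 5, all 43 with both had an overlapping site, and in 24 (55.8%, 39.9 to 70.9) the strongest peaks were at the same site, against 27.9% of all genes with both. Alas2, the entry enzyme of heme synthesis, had 263 GATA2 (232 to 297) and 82 RUNX1 fragments (65.2 to 102) 29 bp apart. Trim10 had 263 and 85 fragments 2 bp apart, Tfr2 258 and 269 fragments 16 bp apart, and Uros and Glrx5 had strong peaks of both (275 and 239, 270 and 266) at separate sites.

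At the globin loci some genes had both factors and others GATA2 alone. The adult beta-globin gene Hbb-bt had 5 GATA2 and 4 RUNX1 peaks (204 and 88 fragments, 35 bp apart), and the alpha-globin genes Hba-a1 and Hba-a2 had 61 and 38 and 72 and 33 fragments. The embryonic genes Hbb-bh1 (115 fragments, 94.9 to 138), Hbb-y (25) and Hba-x (25) and the adult gene Hbb-bs (50) had GATA2 alone. S2P covered 100% of Hba-a1 and Hba-a2, 51.9% of Hbb-bt, 45.0% of Hbb-bs and none of the 3 embryonic genes. Hba-a1 and Hba-a2, and Hbb-bs and Hbb-bt, are near-identical copies, so reads may be split between them. The other genes with GATA2 alone were Tmod1 (62 fragments), Trim58 (52) and Slc14a1 (25).

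Of 21 mast cell genes 13 had both (61.9%, against 46.2% of all genes), 0 had RUNX1 alone (6.16% of all genes) and 6 had GATA2 alone (28.6%, against 14.3% of all genes), namely Tpsb2, Cma1, Hpgds, Slc18a2, Mrgprb2 and Cyp11a1, with 15 to 89 fragments at the strongest. The protease gene Cpa3 had 280 and 170 fragments at separate sites, Ms4a2 256 and 91 and Fcer1a 243 and 188 at overlapping sites, Il1rl1 250 and 198 at separate sites, and Gzmb 184 and 181 fragments 3 bp apart. Of 23 megakaryocyte genes 11 had both, 4 had GATA2 alone, 0 had RUNX1 alone and 8 neither (47.8%, 17.4%, 0% and 34.8%), against 46.2%, 14.3%, 6.16% and 33.3% of all genes. Including 2 on chromosome 5, the strongest peaks coincided in 11 of 13 (84.6%, 54.6 to 98.1), against 27.9% of all genes with both. Among these were Plek (271 and 150 fragments, 5 bp), Gp9 (268 and 214, 24 bp), Myl9 (276 and 181, 53 bp) and Pf4 (282 and 234, 57 bp). The strongest peaks did not coincide at the integrin gene Itgb3 (232 and 209).

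Of 30 cytokine signalling genes 25 had both (83.3%, against 46.2% of all genes), 0 had GATA2 alone (14.3% of all genes) and 4 had RUNX1 alone (13.3%, against 6.16% of all genes), among them Socs3 (101 fragments), Socs1 (42) and Pim2 (35). Stat3 had both at 1 site (278 and 208 fragments, 1 bp apart), as did Stat5a (265 and 58, 8 bp). Gab2, an adaptor of cytokine receptors, had 261 and 230 fragments at separate sites, as had the kinase genes Jak2 (212 and 49) and Pim1 (155 and 169).

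Cytosolic ribosomal protein genes had both in 60 of 74 cases (81.1%), RUNX1 alone in 14 (18.9%) and GATA2 alone in 0. Over all genes these shares were 46.2%, 6.16% and 14.3%. Of the 74 genes, 71 (95.95%) had RUNX1 at a gene end, against 40.2% of all genes. GATA2 was at an end of 42 of them (56.8%, against 21.5% of all genes). The strongest GATA2 peak was at Rpl14 (249 fragments) and the strongest RUNX1 peaks at Rpl19 (238) and Rpl22 (248), and Rpl27 (134 fragments), Rpl8 (127) and Rplp2 (111) had RUNX1 alone. Rps3 had both at 1 site (211 and 89 fragments, 11 bp apart), as had Rps25 (167 and 149, 11 bp), whereas at Rps26 (197 and 54) the strongest peaks were apart.

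In the other housekeeping lists RUNX1 was at a gene end of 30 of 31 proteasome genes, 46 of 48 RNA polymerase II and initiation genes and 39 of 40 splicing genes, against 40.2% of all genes. RUNX1 alone took 6 of the proteasome genes (19.4%), 6 of the polymerase and initiation genes (12.5%) and 2 of the splicing genes (5%), against 6.16% of all genes, and GATA2 alone took 0, 1 and 0, against 14.3% of all genes. Psma7 (215 fragments) and Polr2l (232) were the strongest with RUNX1 alone. Among proteasome genes with both, Psma6 had 231 and 245 fragments 50 bp apart, and Psmb2 (223 and 90), Psmd7 (194 and 94) and Psmd4 (46 and 228) had theirs at separate sites.

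Among RNA polymerase II and initiation genes with both, chromosome 5 included, the strongest peaks coincided in 4 of 44 (9.09%, 2.53 to 21.7), and among splicing genes in 4 of 38 (10.5%, 2.94 to 24.8), against 27.9% of all genes with both. Polr2a, the largest subunit of RNA polymerase II, had 226 GATA2 and 224 RUNX1 fragments 7046 bp apart, and Nelfe, of a pausing factor, had 109 and 210 fragments 5621 bp apart. At Mnat1 (261 and 170) both lay inside the gene, 9610 bp apart. At Gtf2e2, with 269 and 159 fragments, they were 2 bp apart. Of the splicing genes, Hnrnpc (46 and 234), Hnrnpa1 (55 and 216), Prpf31 (29 and 220) and Prpf3 (233 and 106) had the strongest peaks apart, and Snrpd3 (269 and 90, 18 bp) and Srsf3 (194 and 109, 5 bp) had them together.

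Of 41 cell cycle and replication genes 38 had both (92.7%, against 46.2% of all genes). RUNX1 lay at an end of 38 (92.7%, against 40.2% of all genes). With chromosome 5 included, the strongest peaks coincided in 9 of 41 with both (22.0%, 10.6 to 37.6), against 27.9% of all genes with both. Mcm4, a replicative helicase gene, had RUNX1 alone (263 fragments, 232 to 297), and Cdk2 had 238 RUNX1 and 21 GATA2 fragments. Cdt1, the replication licensing factor gene, had 115 GATA2 and 260 RUNX1 fragments 1026 bp apart, and Mcm6 (203 and 196) and Ccnd3 (224 and 157) had strong peaks of both at separate sites. Rb1 had 242 and 132 fragments 3 bp apart inside the gene. Of 45 chromatin regulators 39 had both (86.7%, against 46.2% of all genes). Hdac1 had RUNX1 alone (208) and Kdm1a, the LSD1 demethylase gene, GATA2 alone (97). Hdac3 (27 GATA2 and 258 RUNX1 fragments), Hdac2 (28 and 221) and Eed (65 and 235) had the strongest RUNX1 peak at a gene end and that of GATA2 inside the gene. Arid1b (279 and 141, 2 bp apart), Kdm6a (233 and 44, 5 bp) and Chd9 (201 and 100, at separate sites) had both inside the gene.

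Genes of other lineages had neither factor in 14 of 27 myeloid (51.9%), 14 of 28 lymphoid (50%) and 18 of 30 neuronal and muscle cases (60%), against 33.3% of all genes. Both factors took 7, 7 and 5 (25.9%, 25% and 16.7%, against 46.2% of all genes). GATA2 alone took 5, 5 and 6 (18.5%, 17.9% and 20%, against 14.3% of all genes). RUNX1 alone took 1, 2 and 1 (3.70%, 7.14% and 3.33%, against 6.16% of all genes). Strong exceptions with both were Ryr1 (265 and 151 fragments, 30 bp apart), Mbp (280 and 196) and Lck (206 and 47), followed by Fcgr3 (178 and 33), Rag1 (139 and 16), Vpreb1 (123 and 90), Mmp8 (109 and 45), Syt1 (108 and 28) and Csf3r (84 and 52). RUNX1 was the stronger at Ptcra (45 and 145), Cebpb (46 and 105) and Csf2ra (29 and 100). Among those with GATA2 alone, Rag2 (80) and Gad2 (59) were the strongest. The plot of gene lists shows these shares side by side. Of the 3079 genes covered by S2P, 2644 had both factors and 321 had RUNX1 alone. The part of S2P coverage in the RUNX1 shares of the lists was not tested.

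**Figure D5:**
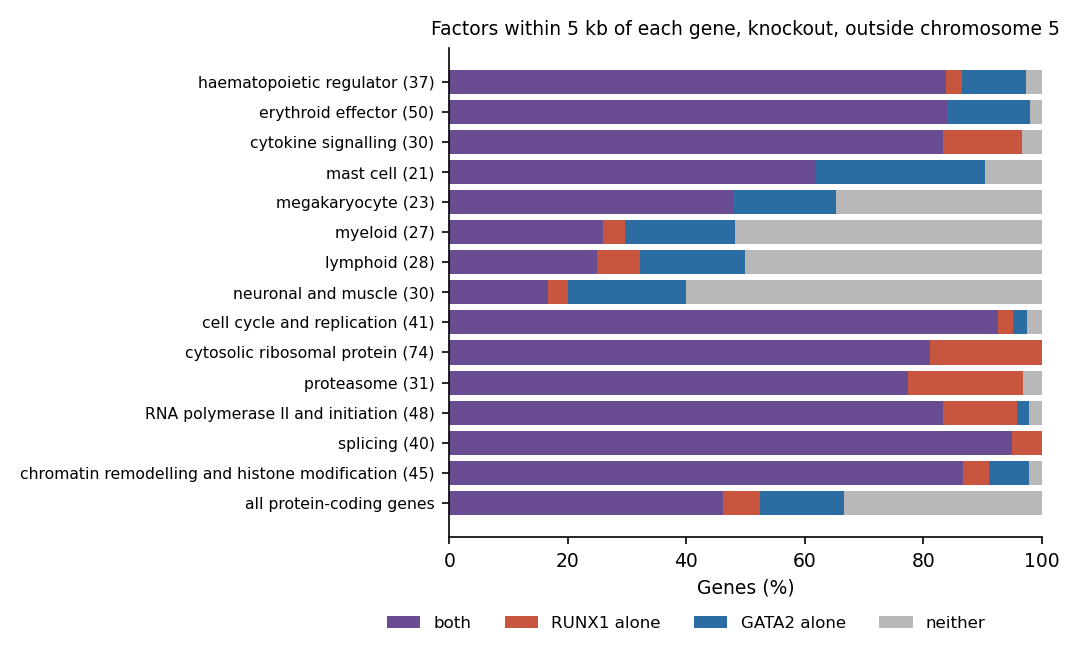
Share of the genes of each list (horizontal axis, percent; number of genes in brackets) outside chromosome 5 with both factors, RUNX1 alone, GATA2 alone or neither within 5 kb in the knockout, with all protein-coding genes in the lowest bar. RUNX1 alone takes 18.9% of the ribosomal protein genes and 0% of the erythroid, mast cell and megakaryocyte genes, against 6.16% of all genes. In the erythroid, mast cell and megakaryocyte lists GATA2 alone takes 14%, 28.6% and 17.4%, against 14.3% of all genes. The lists are short, and whether their shares differ from those of all genes was not tested.

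Chromosome 5 had the strongest median peaks of both factors among the chromosomes compared and a summit ratio outside the range of the others, with overlap, gene-end share and summit distance within it. Of its 1269 genes 69.3% had GATA2 and 57.6% had RUNX1: 665 had both (52.4%), 214 had GATA2 alone (16.9%), 66 had RUNX1 alone (5.20%) and 324 had neither (25.5%). Its median summits held 27 GATA2 and 43 RUNX1 fragments, above each of the 19 other chromosomes compared (19 to 26 and 26 to 42, Y left out). In the wild type they held 24 and 37, against 23 and 38 outside it. Overlap was 22.6% of GATA2 and 52.3% of RUNX1 peaks, gene-end shares were 6.50% and 30.7%, and the median summit distance was 23 bp, each within the range of the other chromosomes. The median log2 ratio of RUNX1 to GATA2 at pairs was −0.76, above the −1.11 to −0.78 of the others, with 5.48% of 1315 pairs above 2-fold in favour of RUNX1 and 41.3% in favour of GATA2.

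The strongest sites with both on chromosome 5 were at the protease gene Adamts3 (227 and 204 fragments, 5 bp apart), Aff1, a gene of the super elongation complex (281 and 233, 1 bp), and Gpr146 (271 and 235, 6 bp). RUNX1 without GATA2 was strongest at the Wnt receptor gene Fzd9 (217), Rnf34 (154) and Ogfod2 (181), each at a gene end, and GATA2 without RUNX1 at Msantd1 (196), the AMPK subunit gene Prkag2 (148) and Drc1 (161), each inside the gene. In the wild type Msantd1 and Prkag2 each had 1 RUNX1 peak, and the 3 genes with RUNX1 had no GATA2 peak.

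The wild type gave similar values for most of these measures. There 8759 genes had both (42.5%), 2868 GATA2 alone (13.9%), 1509 RUNX1 alone (7.32%) and 7482 neither, and 8358 genes had both factors in both genotypes. Overlap was 22.3% of GATA2 and 54.0% of RUNX1 peaks, and the median summit distance was 22 bp. The gene-end sites differed more. RUNX1 peaks at gene ends overlapped GATA2 in 17.3% of cases in the wild type (16.4 to 18.1) and 20.2% in the knockout (19.4 to 21.0), and GATA2 peaks at gene ends overlapped RUNX1 in 32.6% (31.2 to 34.1) and 39.8% (38.4 to 41.2). Inside genes the RUNX1 share was 67.9% in the wild type and 65.0% in the knockout, the opposite direction. Summit distances of gene-end pairs had medians of 39 bp in the wild type and 60 bp in the knockout. With 1 library per factor and genotype, and longer knockout lists for both factors, these differences were not tested.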

How the data were processed

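ChIP-seq peak lists were analysed: 1 library each for GATA2 and RUNX1 in the knockout, the knockout S2P list, and the wild-type factor lists. Per the submitters' processing notes, Bowtie2 2.2.1 and MACS2 2.1.0 were used on GRCm38 (mm10), and the deposited peak names give a q threshold of 0.05. The authors deposited for each peak a score (10 times −log10 q, cut to a whole number), a fold enrichment (ratio of pileup to local background), −log10 p, −log10 q and the summit offset. From fold enrichment and −log10 p the summit fragments and background were recovered. All summits (100%) gave a whole number with −log10 p within 0.005. 0 columns of the files used were left unmapped.

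Genes came from RefSeq (GRCm38.p6, 21887 protein-coding). Direction came from the RefSeq promoter table, for 17492 genes, and that table holds none on chromosome 18. Named sites are the strongest by −log10 q of each kind (6 outside and 3 on chromosome 5), the 6 pairs most in favour of each factor with at least 50 fragments for one of them, the 16 genes of the factors and their partners, and the members with the strongest peaks in each list. Predicted genes were passed over, and some genes the rule named are not reported here. The members and lists were chosen with earlier results of these data known. Python 3.11.15, numpy 2.4.6, pandas 2.3.3, scipy 1.17.1 and matplotlib 3.10.9 were used, and the code was tested on simulated data. Alternatives covered stricter and equal-length lists, windows, overlap rules, coverage cut-offs and motifs. Motifs away from promoters were not analysed here.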

Additional observations from a re-analysis of the deposited data

How the results depend on the processing

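Of 58 alternatives to 15 values, 24 stayed within the counting interval or within 1.5 times the count, and 34 did not. No alternative run reversed the order of RUNX1 over GATA2 in the gene-end share, or of RUNX1 alone over GATA2 alone in S2P coverage. For S2P coverage these were other cut-offs, summits in the gene itself and chromosome 5 included. It was not recomputed with equal-length or stricter lists, which change the gene classes. With as many GATA2 as RUNX1 peaks, GATA2 alone fell to 1021 genes and RUNX1 alone rose to 3080, which reverses their order, overlap was 43.3% of GATA2 and 44.5% of RUNX1 peaks, and the GATA2 gene-end share was 7.89%. The list here holds fewer GATA2 peaks by construction. With −log10 q of at least 5, overlap was 23.9% and 53.1%, gene-end shares were 6.90% and 30.9%, and the median distance was 21 bp. With only summits in the gene itself, 6192 genes had both, and S2P coverage was 13.1% with GATA2 alone, 33.3% with RUNX1 alone and 6.55% with neither. An overlap of 50% of both peaks gave 16.4% and 37.5%, and summits within 100 bp gave 19.5% and 44.7%. Gene ends of 500 bp gave 3.29% for GATA2 and 23.5% for RUNX1, and of 2 kb 12.3% and 37.5%. The log2 ratio at pairs was −1.04 without scaling and −0.89 on the authors' fold enrichment. At a cut-off of 25% S2P coverage the shares were 46.1% with both, 4.90% with GATA2 alone, 44.5% with RUNX1 alone and 2.16% with neither, and at 75% they were 14.2%, 0.958%, 15.2% and 0.610%. The shorter motif GATAA was in 61.2% of windows with GATA2 alone, and TGNGGT in 40.9% of those with RUNX1 alone. Chromosome 5 moved none of these values beyond its interval. No paired analysis was possible because each factor had 1 library and no test was made. One library per factor leaves replicate error unknown, weak peaks rest on as few as 7 fragments, and GATA2 and RUNX1 levels rest on different antibodies.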
